A study of Mus musculus with 4 samples.

Results

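Phosphoinositide 3-kinases (PI3Ks) were examined through 10 genes, taken by symbol from the 54021 symbols of the count table. All 10 were present. They were the class I catalytic subunits Pik3ca, Pik3cb, Pik3cd and Pik3cg, the regulatory subunits Pik3r1, Pik3r2, Pik3r3 and Pik3r5, the class III kinase Pik3c3 and the adaptor Pik3ap1. From textbook knowledge, 6 of them (Pik3ca, Pik3cb, Pik3r1, Pik3r2, Pik3r3 and Pik3c3) were grouped as broadly expressed and 4 (Pik3cd, Pik3cg, Pik3r5 and Pik3ap1) as leukocyte-enriched.

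RNA was sequenced from reconstituted ovaries (rOvaries), which were made by aggregating fetal primordial germ cells with somatic cells of the gonad and were collected after 1 month of growth beneath the capsule of a kidney. The donor cells came from C57BL/6 crosses carrying an actin-GFP transgene, and the recipients were young, ovariectomized G2 Terc-/- females, which lack telomerase, on the C57BL/6 background. There were 2 libraries from recipients given the mTOR kinase inhibitor INK128 in drinking water (replicates 1 and 2, labelled 0.75 μM per g of body weight, while the study's methods give an amount per volume of water with an approximate daily dose by weight) and 2 control libraries (replicates 1 and 3) from recipients of the same kind without INK128. By the study's description, all 4 rOvaries shared the telomerase-deficient host, the strain of the donor cells and the kidney site. Each could hold host as well as donor cells. The labels do not say whether the libraries of a group came from separate animals, so p-values measure only the spread between these libraries. For the INK128 libraries this spread may be technical. The controls differed in Y-linked counts (1021 in replicate 1 and 0 in replicate 3), so theirs is more than technical.

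Class I PI3Ks phosphorylate the membrane lipid PIP2 to PIP3, which recruits the kinases PDK1 and AKT and lies upstream of mTOR. The p110 catalytic subunits of class IA (alpha, beta and delta) are held by p85-type regulatory subunits that bind phosphotyrosine on receptors, whereas p110gamma binds p101 or p84 and answers to G protein-coupled receptors. In the ovary this pathway drives primordial follicles out of dormancy through the transcription factor FOXO3.

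Pik3cb, which encodes p110beta, fell with INK128, the control mean being 3.79-fold the INK128 mean. It was the 1 gene called by edgeR of the 8 that were abundant enough for the stricter fit, in which 3.19% of all genes were called lower. The call was lost in the wider fit of all 10, with limma voom, and with offsets for exon length or GC content. In each of these settings no gene of the whole table was called. The log2 ratio of Pik3cb there was -1.87, -1.95, -1.64 and -1.8 in that order, against -1.92 in the stricter fit. The other catalytic genes of class IA, Pik3ca and Pik3cd, differed little between the groups. Of the 4 leukocyte-enriched genes, Pik3cd and Pik3cg had overlapping groups. Pik3ap1 had a log2 ratio of -2.05 in the stricter fit and Pik3r5 one of -1.63 in the wider fit, both with larger spread than Pik3cb. Neither was called by edgeR, but Pik3r5 was tested only in the wider fit, where edgeR called no gene at all. DESeq2 called Pik3ap1. In whole-tissue RNA, fewer cells of a type and less RNA per cell cannot be told apart. Pik3r2 was the 1 gene of the 10 with both INK128 libraries above both controls, as were 30.9% of all 17631 genes.

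Library totals lay between 19130209 and 23029089 counts, of which the 10 genes took 9233 to 14389. A floor of 3 counts, covering counting error only, came to 0.13 to 0.157 CPM when divided by the library totals. The lowest count of the 10 genes in any library was 16. All other CPM given here are counts scaled to the library sizes of the tested genes and their TMM factors. The controls stood further apart than the treated rOvaries, with 13.8% of tested genes over 2-fold apart against 1%. Summed oocyte markers (13 genes) were at 1232, 905 and 898 CPM in the INK128 libraries and control replicate 1 and at 65.8 CPM in control replicate 3. All 4 Y-linked genes examined were counted in control replicate 1 (1021 counts in sum, against 2, 0 and 0 elsewhere). That library thus held male cells, whereas the study describes female recipients and female donor gonads. The sex of the donor cells was therefore not the same in all libraries. Summed granulosa and steroid cell markers (15 genes) spanned 4494 to 17962 CPM in controls and 10940 to 14220 CPM with INK128. With 2 libraries a group, the smallest two-sided p of an exact permutation test on 1 value is 0.333, so adjusted p-values below were taken from fits over the whole gene table.

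Sequences before the RefSeq start of 4 genes are shown because the largest differences touched both classes, and CpG-rich promoters are typical of broadly expressed genes. RefSeq promoters (GRCm38.p6) were matched by symbol for 9 of the 10 genes. Each line gives bases from the 250 before the most upstream RefSeq start, on the minus strand, with every CpG dinucleotide in capitals. Bases that GENCODE M21 places in a UTR of the gene are left off, which takes 140 from Pik3cb and 1 from Pik3r2. The RefSeq start of Pik3cb lies downstream of the GENCODE one, so the 110 bases shown for it are inside the GENCODE gene, just after its first exon.

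Pik3cb (chr9:99140212-99140321): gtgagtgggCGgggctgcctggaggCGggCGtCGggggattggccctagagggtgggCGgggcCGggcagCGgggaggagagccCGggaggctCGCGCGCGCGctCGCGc
Pik3r2 (chr8:70776714-70776962): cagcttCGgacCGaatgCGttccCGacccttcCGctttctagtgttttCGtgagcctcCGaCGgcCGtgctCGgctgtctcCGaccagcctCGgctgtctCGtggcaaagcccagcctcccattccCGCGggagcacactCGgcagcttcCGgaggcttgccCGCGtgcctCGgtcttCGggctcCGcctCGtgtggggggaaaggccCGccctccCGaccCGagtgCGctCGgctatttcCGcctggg
Pik3ap1 (chr19:41385103-41385352): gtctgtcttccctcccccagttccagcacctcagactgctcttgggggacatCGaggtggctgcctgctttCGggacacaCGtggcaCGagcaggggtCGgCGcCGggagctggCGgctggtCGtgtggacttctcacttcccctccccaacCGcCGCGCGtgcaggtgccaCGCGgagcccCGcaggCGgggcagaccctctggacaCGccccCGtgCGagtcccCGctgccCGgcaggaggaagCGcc
Pik3cg (chr12:32208660-32208909): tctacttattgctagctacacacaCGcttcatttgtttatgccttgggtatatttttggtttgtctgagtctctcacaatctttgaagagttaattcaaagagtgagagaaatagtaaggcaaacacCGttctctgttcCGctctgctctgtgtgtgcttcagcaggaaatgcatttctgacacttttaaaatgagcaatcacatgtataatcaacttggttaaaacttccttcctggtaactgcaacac

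Over the full 250 bases Pik3cb held 32 CpG and Pik3r2 29, whereas Pik3cg held 3. Pik3ap1, grouped as leukocyte-enriched, held 23 and so resembled the broadly expressed genes in this respect. Over the 27025 genes of the RefSeq table the median was 6. The ratio of observed to expected CpG was above 0.6 in all 5 broadly expressed genes with an entry and in 2 of the 4 leukocyte-enriched genes, against 34.5% of all genes. GAGGAA, the core that the myeloid factor PU.1 prefers, was looked for on both strands. It was found in Pik3ap1 and in none of the other 8 at the most upstream start, and 23.1% of all promoters held it. At starts further downstream, 1 of Pik3cg held it 2 times and 2 of Pik3r3, a broadly expressed gene, held it 1 time each. GTAAACA and TATAAA were looked for as well, and no most upstream start of these genes held either (3.06% and 13% of all promoters did). Further downstream, GTAAACA was found at a start of Pik3cg and TATAAA at a start of Pik3r1. These matches describe the letters only.

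To compare levels between genes, CPM were divided by the exon length in kb. In controls Pik3r1, which encodes p85alpha and its shorter forms, was highest at 26.7 ± 1.86 CPM per kb (SD, n = 2). Pik3r2 (p85beta) followed at 15.2 ± 0.806, and then came Pik3ca at 9.33, Pik3r3 at 8.67, Pik3c3 at 7.75 and Pik3cd at 6.74 CPM per kb, neighbours whose libraries overlapped. Below them were Pik3ap1 at 3.5 and Pik3cb at 2.64 CPM per kb, which overlapped each other, and then Pik3cg at 1.16 and Pik3r5 at 0.875. With INK128 the libraries of Pik3r1 (21.3 ± 3.33 CPM per kb) and Pik3r2 (20.8 ± 0.86) overlapped, so the gap at the top of the order was no longer seen. Lower in the order, Pik3ap1 (0.845 CPM per kb) overlapped Pik3cb (0.696), and Pik3cb overlapped Pik3cg (0.679), in the INK128 libraries, while Pik3cg stood above Pik3r5 (0.271). The transcript of p110beta therefore stood clear of that of p110gamma in controls and did not do so with INK128.

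**Figure D1:**
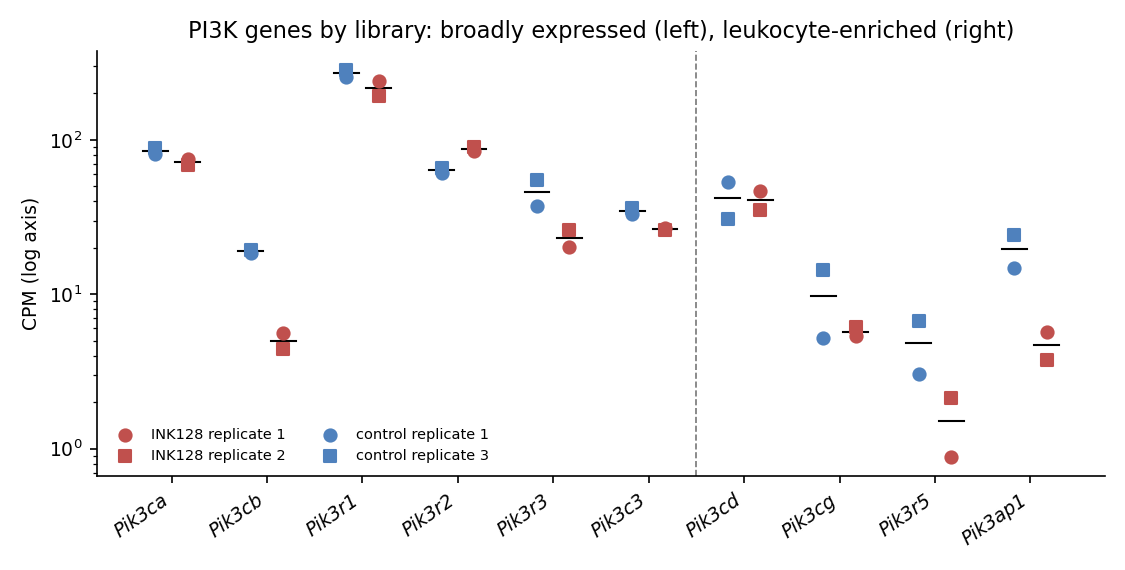
Level of each of the 10 PI3K genes in CPM (vertical, log axis) in each of the 4 libraries. Points are single libraries (blue, control; red, INK128), and black bars are group means. For Pik3cb both INK128 points (5.62 and 4.39 CPM) sit far below both controls (18.6 and 19.4 CPM), whereas the points of Pik3cd overlap.

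INK128 was compared with control by the quasi-likelihood test of edgeR, giving a log2 ratio (INK128 over control) and its standard error (SE). A gene was called when its p, adjusted over all tested genes by Benjamini-Hochberg, was below 0.05 and its fold above 1.5. Of the 10 genes, 8 had a mean CPM above 10 and were tested among 11758 such genes, while Pik3cg and Pik3r5 entered a wider fit of 17631 genes whose mean CPM exceeded 1. In the first fit 1 of the 8 was called, Pik3cb, which was lower. Over all genes in that fit 3.19% were called lower and 3.18% higher, which is the background for the 1 call in 8. At an unadjusted p below 0.05, 3 of the 8 were lower and 1 (Pik3r2) higher, where 18.7% of all genes were lower and 17.7% higher. In the wider fit edgeR called 0 of the 10 and 0 of all 17631 genes, with 4 of the 10 and 5797 of all genes at an unadjusted p below 0.05 (3 of the 10 lower and 1 higher, against 17.8% and 15.1% of all genes). DESeq2 called 3 of the 8 (Pik3cb, Pik3r3 and Pik3ap1), where it called 15.1% of all genes lower and 13.6% higher. It called the same 3 of the 10 in the wider fit, against 13.6% of all genes lower and 10.2% higher. With limma voom 0 of the 8 and 0 of all 11758 genes were called in the first fit, with 4 and 3979 at an unadjusted p below 0.05. In the wider fit it called 0 of the 10 and 0 of all 17631, with 4 and 5294 at an unadjusted p below 0.05. With the limit on the adjusted p at 0.1, edgeR called 3 of the 8, against 13.5% of all genes lower and 13.1% higher. In the wider fit it then called 2 of the 10, against 21.4% of all genes (11.5% lower and 9.89% higher). The number of calls thus depended on the tool, the filter and the limit.

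Pik3ca encodes p110alpha, the catalytic subunit that carries most insulin and growth factor signals. It lies on chromosome 3 of mm10 from 32397671 to 32468486. It had 74.5 and 68.4 CPM in the INK128 libraries and 81.4 and 88.1 CPM in controls. All 4 values lay close together, although both treated values were under both controls. Its log2 ratio was -0.25 with an SE of 0.17 (edgeR adjusted p = 0.331).

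Pik3cb encodes p110beta, which can be driven by G protein-coupled receptors as well as receptor tyrosine kinases. It lies on chromosome 9 from 99036654 to 99140621 on the minus strand. It had 5.62 and 4.39 CPM with INK128 and 18.6 and 19.4 CPM in controls, from 102, 93, 409 and 447 counts. The controls agreed closely even though they differed at many other genes, and the INK128 libraries differed by little more than 1 CPM. It fell by 1.92 on the log2 scale (SE 0.30) with an adjusted p in edgeR of 0.0464, a value it shared with genes of lower unadjusted p, such as Met and Kdr. It stayed between -2.12 and -1.76 with each library left out in turn, but the call was lost without INK128 replicate 1 or without INK128 replicate 2, where edgeR called no gene. Markers of kidney, the organ that carries the graft, moved in the same direction. All 15 tested were negative with no overlap (against 34% of all genes), edgeR called 7 of them (against 3.19% of all genes lower), and the 20 listed summed to 113 and 252 CPM with INK128 and 940 and 2028 CPM in controls. Of 19 tested in the wider fit, 17 had both INK128 libraries below both controls and 1, the podocyte gene Nphs1 (named after its values were seen), had both above, against 35.3% and 30.9% of all genes. Their part in the values of Pik3cb was not tested.

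Pik3cd and Pik3cg encode p110delta and p110gamma, the catalytic subunits best known from lymphocytes and myeloid cells. They lie on chromosome 4 from 149649168 to 149702571 and on chromosome 12 from 32173473 to 32208659. Pik3cd had 46.9 and 35.1 CPM with INK128 and 53.7 and 30.7 CPM in controls. The 2 controls enclosed both treated libraries, and the log2 ratio of -0.04 (SE 0.34, edgeR adjusted p = 0.941) had no stable direction, being 0.42 without control replicate 1 and -0.39 without control replicate 3. Pik3cg had 5.35 and 6.1 CPM with INK128, and 5.18 and 14.4 CPM in controls. Control replicate 3 alone was high, since control replicate 1 lay below both treated libraries. Its log2 ratio of -0.72 in the wider fit (SE 0.57, edgeR adjusted p = 0.411) was 0.20 without control replicate 3.

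The class IA regulatory genes lie on chromosome 13 from 101680563 to 101768217 (Pik3r1), chromosome 8 from 70768176 to 70776713 (Pik3r2) and chromosome 4 from 116221618 to 116303056 (Pik3r3). Pik3r1 had 239 and 191 CPM with INK128 against 256 and 283 CPM in controls, a log2 ratio of -0.33 (SE 0.20, edgeR adjusted p = 0.294). Pik3r2 had 84.4 and 89.5 CPM with INK128 and 61.2 and 66 CPM in controls. Its exons share 45 bases with 6330537M06Rik on the opposite strand, and the strand setting of the counting is not given in the sources used here. Both treated libraries were higher, and the replicates of each group agreed within 10 CPM, yet the log2 ratio of 0.45 (SE 0.16, edgeR adjusted p = 0.126) did not pass. With offsets for GC content it was 0.095 (edgeR adjusted p = 0.71). Pik3r3, which encodes p55gamma, had 20.1 and 26.1 CPM with INK128 and 37.1 and 54.8 CPM in controls. Its log2 ratio was -0.99 (SE 0.29, edgeR adjusted p = 0.0894), and DESeq2 called it (adjusted p = 0.0281). Of the exon length of Pik3r3, 24.3% is shared on the same strand with Gm49337, an overlapping gene model that had 1.16, 1.32, 7.05 and 17.2 CPM in the same library order. Reads of the shared exons cannot be assigned to 1 of them, so the value of Pik3r3 is uncertain.

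Pik3r5, on chromosome 11 from 68432121 to 68497849, encodes p101, the partner of p110gamma. It was the least abundant of the 10, with 0.882 and 2.13 CPM (16 and 45 counts) with INK128 and 3.05 and 6.67 CPM (67 and 154 counts) in controls. The groups did not overlap, but within each group the replicates lay over 2-fold apart, and the log2 ratio of -1.63 in the wider fit had an SE of 0.71 (edgeR adjusted p = 0.186). It ranged from -2.41 to -0.95 with each library left out. For every 100 units of Pik3cg per kb, Pik3r5 had 25 and 53 with INK128 and 89.2 and 70.2 in controls, lower in both treated libraries than in either control.

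Pik3ap1 encodes BCAP, an adaptor that brings p85 to the B cell receptor and to Toll-like receptors and is also found in macrophages. It lies on chromosome 19 from 41272377 to 41385102. It had 5.68 and 3.73 CPM with INK128 and 14.7 and 24.3 CPM in controls, with no overlap, and the control mean was 4.14-fold the INK128 mean. Its log2 ratio was the lowest of the 10, at -2.05, but with an SE of 0.42 its adjusted p was 0.0542 in edgeR, just over the threshold. DESeq2 called it (adjusted p = 0.000729).

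Pik3c3 encodes VPS34, the class III kinase that makes PI3P on endosomes and on forming autophagosomes. It had 27 and 26.1 CPM with INK128 and 32.8 and 36.4 CPM in controls, a log2 ratio of -0.38 (SE 0.19, edgeR adjusted p = 0.225).

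**Figure D2:**
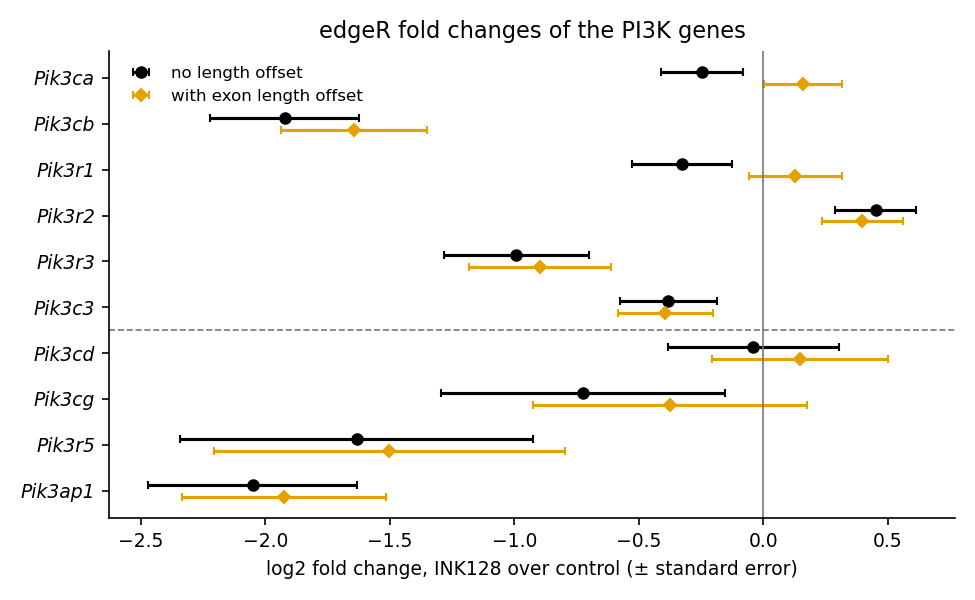
Log2 ratio (INK128 over control, horizontal) of each PI3K gene in edgeR, with bars of ± 1 SE, without an offset (black) and with offsets for exon length (yellow). Pik3cg and Pik3r5 are from the fit with a mean CPM above 1. Pik3cb moves from -1.92 to -1.64 and Pik3ap1 from -2.05 to -1.92, while Pik3ca, Pik3r1 and Pik3cd cross 0.

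Counting direction alone, 6 of the 8 genes had both INK128 libraries below both controls and 1 had both above. Over all 11758 tested genes these shares were 34% lower and 34.5% higher. In the wider fit it was 7 of 10 lower and 1 higher, against 35.3% and 30.9% of all genes. The median log2 ratio of the 8 was -0.35, against -0.03 over all tested genes, and 7 of the 8 were negative. With offsets for exon length it was -0.13, and 4 were negative. The genes of the PI3K family are long, however, and exon length moved with the fold change in these libraries. In 4 bins of exon length with equal numbers of genes, the median of all tested genes went from 0.56 for the shortest to 0.12, -0.17 and -0.50 for the longest, and in the longest bin 60.9% of genes had both INK128 libraries below both controls. Of the 8 PI3K genes, 3 were in the longest bin (Pik3ca, Pik3cb and Pik3r1) and 3 in the next.

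When edgeR was run with offsets for exon length in each library, no gene was called, with 3 of the 8 PI3K genes and 3126 of all 11758 at an unadjusted p below 0.05. The log2 ratios were then -1.64 for Pik3cb (edgeR adjusted p = 0.0833) and -1.92 for Pik3ap1 (edgeR adjusted p = 0.0952). Pik3ca (0.16) and Pik3r1 (0.13) turned positive, so the direction of these 2 genes depended on the treatment of length. The part of transcript length in the differences was not tested further.

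**Figure D3:**
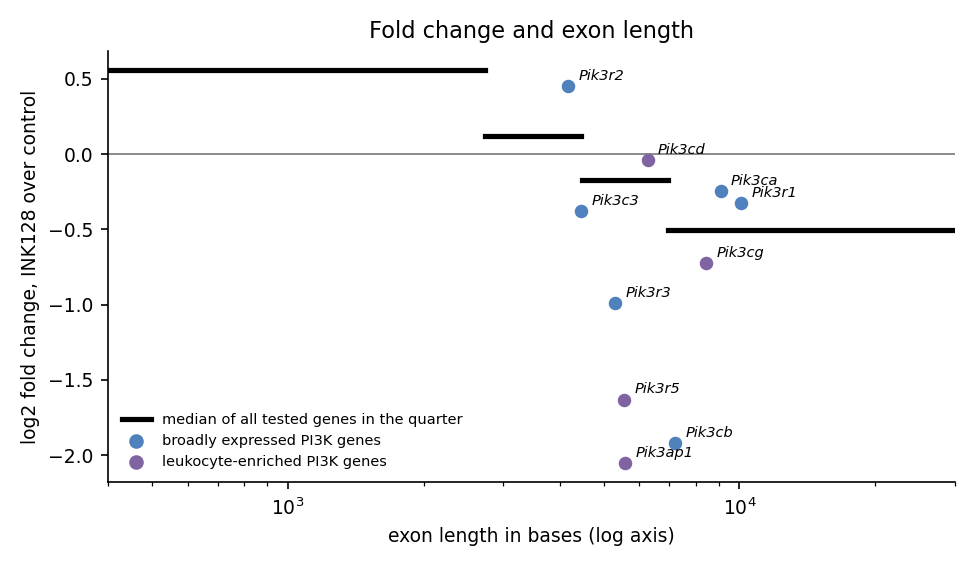
Log2 ratio (vertical) against exon length in bases (horizontal, log axis). Black bars are medians of all genes tested at a mean CPM above 10 in each of 4 bins of exon length, drawn between the axis limits. Dots are the 10 PI3K genes, of which Pik3cg and Pik3r5 are from the fit with a mean CPM above 1. Pik3ca and Pik3r1 lie above the median of their bin (-0.50), and Pik3cb, Pik3ap1, Pik3r5 and Pik3r3 lie well below those of theirs.

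The composition of the PI3K transcripts within each library does not depend on the scaling between libraries, but these shares carry no offset for exon length or GC content. Of the 4 class I catalytic genes, summed per kb, Pik3cb made up 4.57% and 4.22% with INK128 and 12.5% and 14.2% in controls. Means were 4.39% ± 0.245 (SD, n = 2) and 13.3% ± 1.2 (SD, n = 2), and the gap was several times the spread of either group. Pik3ca held 47.9% and 52% with INK128 and 43.2% and 51% in controls, which overlapped, as did Pik3cd with 43.8% and 38.8% against 41.3% and 25.8%. Pik3cg was between 2.97% and 9.01% in controls, enclosing its shares of 3.71% and 5% with INK128.

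Among the 3 class IA regulatory genes, Pik3r2 made up 42.4% and 47.3% of the summed level per kb with INK128 and 31.1% and 29.2% in controls. Pik3r1 had 49.7% and 41.8% against 54% and 51.8%, and Pik3r3 7.94% and 10.9% against 14.9% and 19.1%. None of the 3 overlapped between the groups. The share of Pik3r2 was higher with INK128 than in controls, and those of Pik3r1 and Pik3r3 were lower. The 3 shares make up a whole, so a rise in that of Pik3r2 lowers the others, and they are not 3 separate results. By CPM, 34% of all tested genes had both INK128 libraries below both controls and 34.5% had both above. How often such shares do not overlap for other genes was not computed. The log2 ratios of Pik3r2 and Pik3r1, 0.45 and -0.33 without offsets, were closer together with offsets for exon length (0.40 and 0.13) or GC content (0.095 and -0.19). The regulatory genes together stood at 289 and 330 per 100 units of class IA catalytic genes with INK128 and at 234 and 314 in controls, which overlapped. For each share that did not overlap, the two-sided exact permutation p is 0.333, the smallest this design allows.

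**Figure D4:**
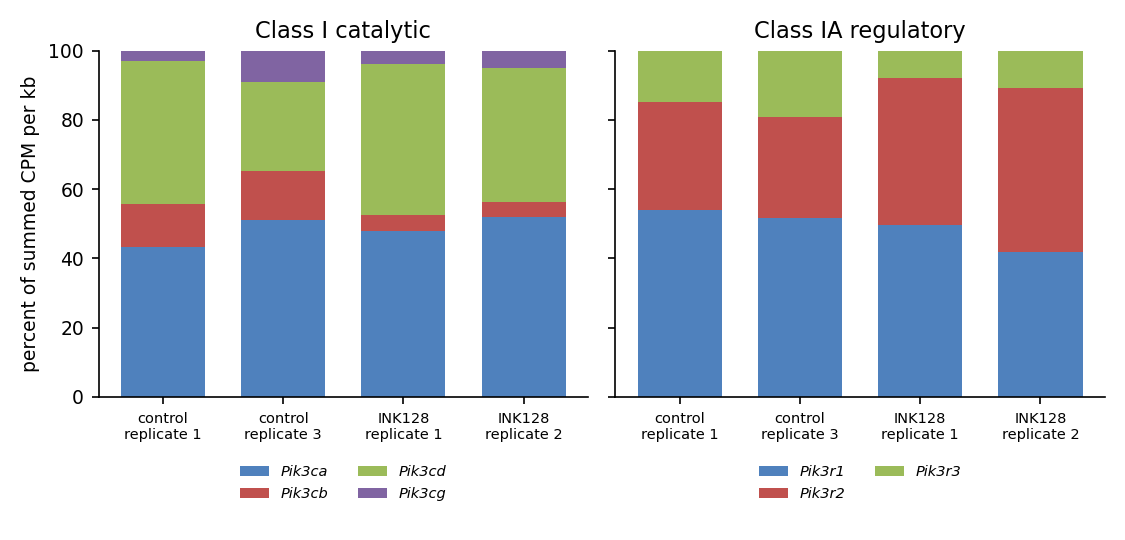
Share of each gene in the summed CPM per kb of the class I catalytic genes (left) and the class IA regulatory genes (right), in percent, in each library. The Pik3cb segment narrows from a mean of 13.3% in controls to 4.39% with INK128, and the Pik3r2 segment widens from 30.1% to 44.8%.

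The broadly expressed and leukocyte-enriched genes were set side by side in the wider fit, where all 10 were tested. The 6 broadly expressed genes had a median log2 ratio of -0.30 and the 4 leukocyte-enriched genes one of -1.18, against -0.04 over all 17631 genes. With offsets for exon length these medians were -0.092 and -0.94, and with scaling by library totals -0.47 and -1.35. Within each class the genes differed more than the medians did. Pik3cb was the outlying gene of the first class, and Pik3cd, at 0.01 in this fit, that of the second. The median of the leukocyte-enriched genes was -0.64 without control replicate 3 and -1.68 without control replicate 1. No test of the difference between the classes was made, since the genes were chosen with earlier results known.

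Leukocyte markers were mostly lower with INK128. Of the 20 markers listed, 10 were tested at a mean CPM above 10, all 10 had negative log2 ratios, 8 had both INK128 libraries below both controls, and none was called by edgeR, with 6 called lower by DESeq2. Over all tested genes 34% had both below, and DESeq2 called 15.1% lower. In the wider fit 19 were tested, of which 18 were negative, 12 had both INK128 libraries below both controls (against 35.3% of all genes) and 7 overlapped. The B cell markers Ms4a1 and Cd79a, named after their values were seen, had control means of 0.995 and 0.944 times the INK128 means, and the B cell marker Cd79b 1.68 times. None of the 20 was at 0 in all libraries. Summed over the 20, they were at 190 and 185 CPM with INK128 and 306 and 460 CPM in controls. Ptprc, the pan-leukocyte antigen CD45, had 8.05 and 7.09 CPM with INK128 and 9.69 and 48.1 CPM in controls, so control replicate 3 stood alone. Spi1, which encodes PU.1, had 9.87, 8.36, 11.7 and 15.5 CPM in the same order, and Laptm5, a lysosomal membrane protein of blood cells, 28.6, 42.2, 68.4 and 79.4 CPM.

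Counted against these markers, the leukocyte-enriched genes went different ways. For every 1000 counts of leukocyte markers, Pik3ap1 had 30 and 20.2 counts with INK128 and 48.2 and 52.8 in controls. Both treated libraries were below both controls on this scale also. Pik3cg had 28.2 and 33 against 16.9 and 31.4, with overlap, and Pik3r5 4.65 and 11.5 against 9.96 and 14.5, with overlap. Pik3cd had 247 and 190 against 175 and 66.7, with both treated libraries above both controls. The summed markers were themselves lower with INK128 (190 and 185 against 306 and 460 CPM). A gene with even CPM, such as Pik3cd, therefore lies higher with INK128 on this scale. How many of all genes do not overlap on it was not computed. Pik3cb, though grouped as broadly expressed, had 29.7 and 23.8 against 60.8 and 42.1, with no overlap. The part of leukocyte content in the differences was not tested.

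The 3 tested genes whose pattern over the 4 libraries was most like that of Pik3ap1, by the root mean square difference of centred log2 CPM, were 1700007J10Rik (0.040), Mpeg1 (0.11) and Nipal3 (0.15). Mpeg1, a macrophage gene, had 25.6 and 21.6 CPM with INK128 and 66.8 and 113 CPM in controls. For Pik3cb the nearest were Ap4e1 (0.054), Epg5 (0.059) and Ube4bos1 (0.066). With 4 libraries, likeness of this kind is a description of these samples only.

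Other genes of the pathway were taken from 6 lists with 91 genes in all, of which 76 were tested at a mean CPM above 10. Of the 76, edgeR called 5, all lower with INK128, and 57 had negative log2 ratios. Over all tested genes 6.37% were called and 51.4% were negative. The median of the 76 was -0.41, or -0.26 with offsets for exon length, where none was called and 23 had an unadjusted p below 0.05. DESeq2 called 25 lower and 4 higher, against 15.1% and 13.6% of all tested genes. In the wider fit edgeR called 0 of 89, with 36 at an unadjusted p below 0.05 (5797 of all 17631 genes), and DESeq2 called 28 (23.8% of all genes).

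Of the 6 further PI3K genes, 4 were tested and 1 was called lower by edgeR, as were 3.19% of all genes. Pik3c2a, a class II kinase of endocytic membranes and the primary cilium, had 41 and 34.1 CPM with INK128 and 86.7 and 89.4 CPM in controls, and it fell by 1.23 on the log2 scale (SE 0.18, edgeR adjusted p = 0.0464). With offsets for exon length its log2 ratio was -0.73 (edgeR adjusted p = 0.106). Pik3ip1, a membrane protein that restrains p110, had 19.4 and 17.2 CPM against 40 and 24.7 CPM (edgeR adjusted p = 0.137). Pik3c2g, named after its values were seen, had 0.221, 0.142 and 0.0455 CPM in the INK128 libraries and control replicate 1 and 16.4 CPM in control replicate 3, so that a single library carried it. Of the 6 partners of the class III complex, 1 of which (Pik3r4) is also among the 6 PI3K genes above, none was called by edgeR or DESeq2, 2 had both INK128 libraries below both controls and 0 above (34% and 34.5% of all genes), and 4 had overlapping groups. Pik3r4 (VPS15) and Becn1, which carry VPS34 in its complexes, had log2 ratios of -0.25 and 0.04, the first turning to 0.17 with offsets for exon length. The lowest p-values there belonged to Uvrag (-0.53, edgeR adjusted p = 0.126, and -0.13 with offsets for exon length) and Atg14 (-0.40, edgeR adjusted p = 0.306).

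Of the phosphatases that oppose PI3K, edgeR called none, while 8 of the 10 tested had both INK128 libraries below both controls, against 34% of all tested genes, and DESeq2 called 7 of them lower, against 15.1%. Among the longest genes 60.9% had both INK128 libraries below both controls. Inpp5d, the leukocyte phosphatase SHIP1, had 8.22 and 10.3 CPM against 16.7 and 20.2 CPM (edgeR adjusted p = 0.0885). Synj1 (-1.20) and Inppl1, or SHIP2 (-0.72), had the lowest p-values of the list.

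Of the 24 receptors and adaptors upstream of class I PI3K, 3 were called lower and 0 higher by edgeR, where 3.19% and 3.18% of all genes were, and DESeq2 called 7 lower and 2 higher (15.1% and 13.6% of all genes). By groups that did not overlap, 13 were lower and 3 higher, against 34% and 34.5% of all genes. Met, the hepatocyte growth factor receptor, had 2.54 and 2.93 CPM with INK128 and 16.5 and 20.4 CPM in controls. It fell by 2.75 on the log2 scale. Kdr, the main VEGF receptor of endothelium, had 57.5 and 51.6 CPM against 171 and 146 CPM and fell by 1.54. Erbb3, a receptor whose tail binds p85 at several sites, had 1.05 and 0.756 CPM against 33.3 and 11 CPM and fell by 4.61. Each had an adjusted p of 0.0464 in edgeR. The kidney markers given beside Pik3cb moved in the same direction. Of 8 endothelial markers, Kdr was the 1 called and the 1 with both INK128 libraries below both controls, 2 (Emcn and Esam, named after their values were seen) had both above, 5 overlapped, and the median of the list was -0.18. The part of kidney tissue in the values of these receptors was not tested.

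Of the 27 tested kinases and targets downstream of PI3K, none was called by edgeR, 15 had both INK128 libraries below both controls and 6 both above, and DESeq2 called 9 lower and 2 higher. Over all tested genes 34% were below and 34.5% above, and DESeq2 called 15.1% lower and 13.6% higher. Akt1, a kinase recruited by PIP3, had 260 and 246 CPM with INK128 and 239 and 234 CPM in controls (log2 ratio 0.10). Akt2 had 172 and 150 against 192 and 170 CPM, with overlap (-0.17, or 0.10 with offsets for exon length). Pdpk1, which encodes PDK1, had a log2 ratio of -1.07 (edgeR adjusted p = 0.0836) and Mtor one of -1.01 (edgeR adjusted p = 0.0526), and with offsets for exon length they were at -0.57 and -0.56. Foxo1 had 181 and 177 CPM with INK128 and 254 and 320 CPM in controls (-0.68, edgeR adjusted p = 0.0885). Foxo3, the FOXO factor of dormant oocytes, had 120 and 71.9 CPM with INK128 and 228 and 109 CPM in controls, which overlapped (-0.81, SE 0.45, edgeR adjusted p = 0.256).

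Of the 16 leukocyte inputs and adaptors, 6 were tested and 1 was called lower by edgeR, as were 3.19% of all genes. Both INK128 libraries lay below both controls for 5 of the 6 (34% of all genes), as they did for 8 of the 10 tested leukocyte markers, whose part in these values was not tested. Syk, the kinase that phosphorylates BCAP downstream of immune receptors, had 9.7 and 8.22 CPM with INK128 and 29.2 and 27.8 CPM in controls. It fell by 1.67 on the log2 scale (SE 0.25, edgeR adjusted p = 0.0464). Lyn had 20.8 CPM in both treated libraries and 27.6 and 49.1 CPM in controls (-0.88, edgeR adjusted p = 0.137).

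**Figure D5:**
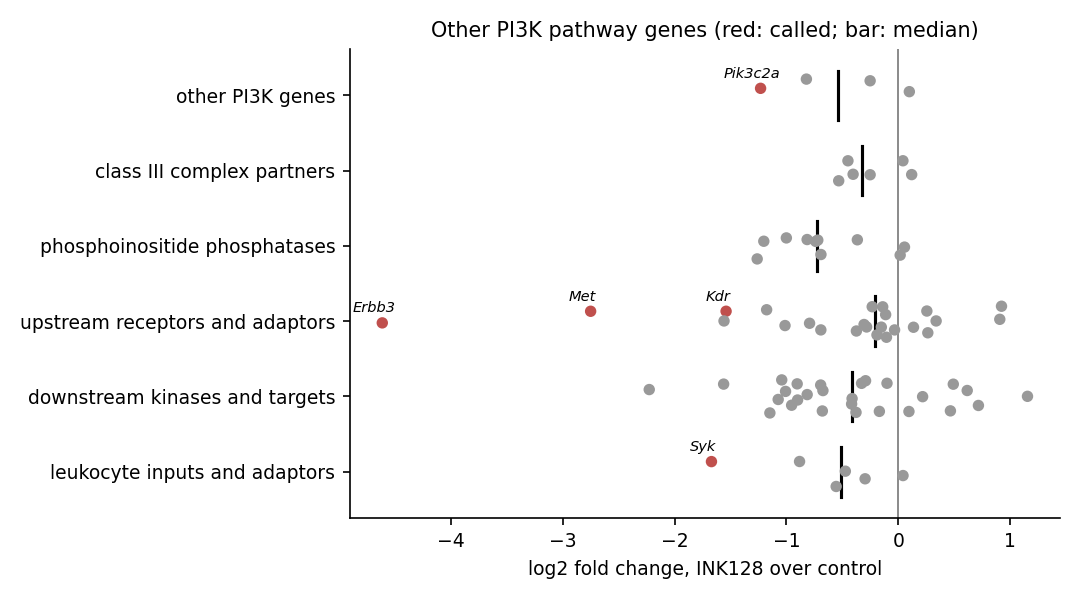
Log2 ratio (horizontal) of the tested genes in 6 lists of the PI3K pathway, 1 row a list, with points spread vertically for legibility. Red points were called by edgeR, and black bars are list medians, all of which lie below 0. The 5 called genes are Pik3c2a, Met, Kdr, Erbb3 and Syk, all lower with INK128.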

How the data were processed

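Per the study's methods, reads passed through Trimmomatic, were mapped by Hisat2 with default settings on the mm10 build, and were summed over genes of an annotation named RefGene by featureCounts. Tool versions and the strand setting are not given in the sources used here. The values the authors deposited were raw read counts for 54021 gene symbols, without pooling. Columns were matched to libraries by title.

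CPM used library sizes and TMM factors of genes with a mean CPM above 10. edgeR 4.0.16 (R 4.3.3) gave the quasi-likelihood test, and standard errors were the log2 fold change divided by the square root of F. Alternatives were DESeq2 1.42.0, limma 3.58.1 (voom), other scalings, filters and thresholds, offsets for exon length or GC content (loess per library), and leaving out each library. Exon length, positions and GC content came from GENCODE M21 (mm10), which matched 53447 of the 54021 symbols. The exon models used in the counting were not analysed here, so levels per kb, shares and overlaps rest on GENCODE models that may differ from them. Of tested genes, 99.5% had a length. Distances between patterns used log2 CPM with a pseudocount of 0.5.

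The members and lists were chosen with earlier results of these data known. By a fixed rule, the named genes were all 10 members, 13 fixed pathway genes (such as Akt1 and Foxo3), the called genes and the 2 lowest p-values of each list, 3 leukocyte markers, and the 3 nearest patterns to Pik3cb and Pik3ap1. Outside this rule, Nphs1, Ms4a1, Cd79a, Cd79b, Emcn, Esam and Pik3c2g were named with their values known. Results for some genes under this rule are not reported here.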

Additional observations from a re-analysis of the deposited data

How the results depend on the processing

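Over 13 alternatives the log2 fold changes of the 10 PI3K genes kept their direction in 123 of 130 values, and 6 of the genes never changed sign. With offsets for exon length, Pik3ca was at 0.16, Pik3r1 at 0.13 and Pik3cd at 0.15. Pik3cd was also at 0.021 with upper quartile normalization, 0.14 without INK128 replicate 2 and 0.42 without control replicate 1, with a lowest value of -0.39, and Pik3cg lay between -1.28 and 0.20, the latter without control replicate 3. The count of called PI3K genes at a mean CPM above 10 (1 of 8) was 3 with DESeq2 or an adjusted p below 0.1, 2 with a filter on at least 2 libraries (1539 of all 11937 genes) or with no filter but 1 count (3105 of all 31483), and 0 with limma voom or with offsets for exon length or GC content. In each of these last 3 settings 0 of all 11758 genes were called. At a mean CPM above 1 (0 of 10) it was 3 with DESeq2, 2 without a filter and 2 at an adjusted p below 0.1. The count of other pathway genes at a mean CPM above 10 (5 of 76) was 29 with DESeq2, 27 at an adjusted p below 0.1, 19 without a filter, 10 with the filter on 2 libraries, and 0 with limma voom, exon length or GC offsets. At a mean CPM above 1 (0 of 89) it was 28 with DESeq2, 22 at an adjusted p below 0.1 and 19 without a filter. With each library left out, these 4 counts ranged from 0 to 3, 0 to 5, 0 to 36 and 0 to 41. The whole table moved likewise. In it edgeR called 0 of all genes without either INK128 library, when only the controls, which lie further apart, gave the spread. Without control replicate 1 it called 5387 of 11758 and 7926 of 17631 genes, and without control replicate 3 it called 5011 and 7212. The median of the broadly expressed genes (-0.30) was -0.47 with library totals, which moved the median of all genes to -0.22, and -0.092 with offsets for exon length. With each library left out it lay between -0.41 and -0.23, and that of the leukocyte-enriched genes (-1.18) between -1.68 and -0.64. Other causes of these changes were not tested. No paired analysis was made, because the replicate numbers are not stated to mark matched libraries. Pik3r5 had 16 to 154 counts a library, and the part of depth in its spread was not tested.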
